A study of Mus musculus with 10 samples.

Results

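The mitochondrial ribosome is assembled from proteins that are encoded in the nucleus, and the genes of this family were taken as every row of the count table whose symbol begins with Mrpl or Mrps and goes on with a number and, in some, letters. The rule found 78 genes among the 55385 of the table, and all 78 were among the 18491 genes with enough counts to be tested. Left ventricle was sequenced as total RNA after removal of ribosomal RNA, from mice of the strain written C56Bl6 in the labels. The HFpEF group (5 libraries) ate a High-Fat diet together with L-NAME, which blocks nitric oxide synthases, over 6 weeks. The name stands for heart failure with preserved ejection fraction, which this regimen is used to model. The Control group (5 libraries) had a standard diet for the same time. Both groups carry the same labelled genotype, with no transgene or deleted allele named, and age is not given in the labels. Whether every library had its own mouse is not stated in the labels, and p-values speak only of spread among these libraries, which may be technical.

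Mitochondrial ribosomes sit in the mitochondrial matrix and translate the mRNAs of the mitochondrial genome, which encode core subunits of the respiratory chain and ATP synthase. The small subunit decodes the mRNA and the large subunit joins the amino acids. Some of the proteins have relatives in the ribosomes of bacteria, and others are found in mitochondria alone. The heart depends on this machinery because cardiomyocytes are packed with mitochondria. By their place in the ribosome, 51 of the 78 genes encode proteins of the large subunit and 26 of the small subunit. The symbol misleads in a few cases: Mrps18a and Mrps30 encode proteins of the large subunit, and Mrps36 encodes a component of the 2-oxoglutarate dehydrogenase complex and was counted in neither. Of the subunit proteins, 45 were counted as having bacterial relatives and 32 as specific to mitochondria. Mrps18a and Mrps18b are among the 32, although they resemble bacterial S18.

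None of the 78 genes passed the test between HFpEF and Control. Levels are in CPM, each gene's share of the library's counts after scaling by edgeR's TMM factors, and a gene was called at a Benjamini-Hochberg adjusted p below 0.05 over all genes tested. In the edgeR quasi-likelihood test 0 of the 78 were called higher and 0 lower in HFpEF, while 985 of all 18491 genes tested (5.33%) were called, 599 higher (3.24%) and 386 lower (2.09%). At an unadjusted p below 0.05 there were 3 of the 78, all lower in HFpEF (Mrps18b, Mrps21 and Mrpl39), against 20.5% of all genes (9.91% lower and 10.6% higher). In 0 of the 78 did the HFpEF libraries lie entirely above or below the Control libraries, against 6.81% of all genes (3.88% above and 2.93% below). DESeq2 and limma voom, run on the same counts, also called 0, with 1 and 2 genes at an unadjusted p below 0.05. In bulk tissue, fewer cells of a type and less RNA per cell cannot be told apart.

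The differences were small as well as uncalled. Log2 fold changes of HFpEF over Control ran from −0.25 (Mrps18b) to 0.15 (Mrpl36), with a median of −0.02, beside −0.01 over all genes tested. The median size of a log2 difference, whatever its sign, was 0.0454 for the 78 genes, 0.114 for all genes tested and 0.0946 for the 11690 genes within the family's range of expression. Their median standard error was 0.0748, against 0.101 for all genes and 0.0842 for genes in that range. The 95% interval of the fold change lay within 1.2-fold in either direction for 57 of the 78, within 1.25-fold for 70 and within 1.5-fold for 78. Among all genes tested, 34.0% had an interval within 1.2-fold and 44.9% within 1.25-fold. In the family's expression range these shares were 43.0% and 57.9%. The lowest end of any interval was 0.742-fold for Mrps18b, and the highest was 1.33-fold for Mrpl23, the gene with the fewest counts in the family. Besides these, the intervals of Mrpl21, Mrpl34, Mrpl36, Mrpl48, Mrpl52 and Mrps12 reached past 1.25-fold.

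**Figure D1:**
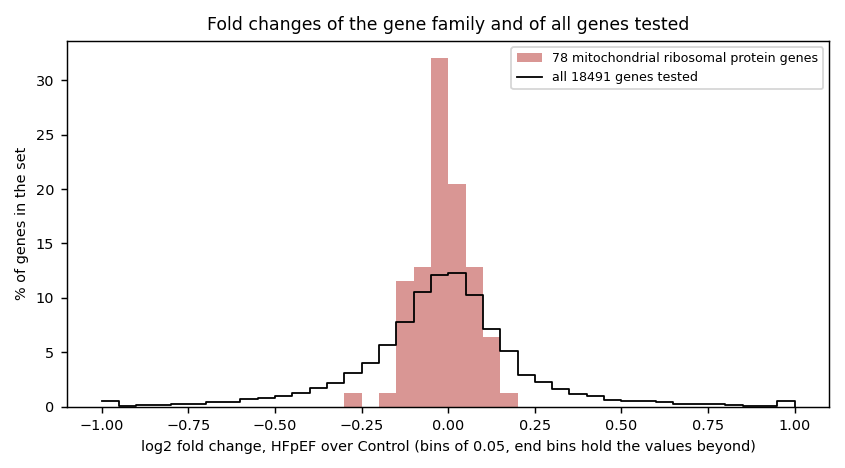
Share of genes (vertical axis, %) by log2 fold change of HFpEF over Control (horizontal axis, bins of 0.05; the end bins also hold values beyond them), for the 78 mitochondrial ribosomal protein genes (filled bars) and all 18491 genes tested (line). The family lies between −0.25 and 0.15, while all genes spread more widely around a median of −0.01.

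**Figure D2:**
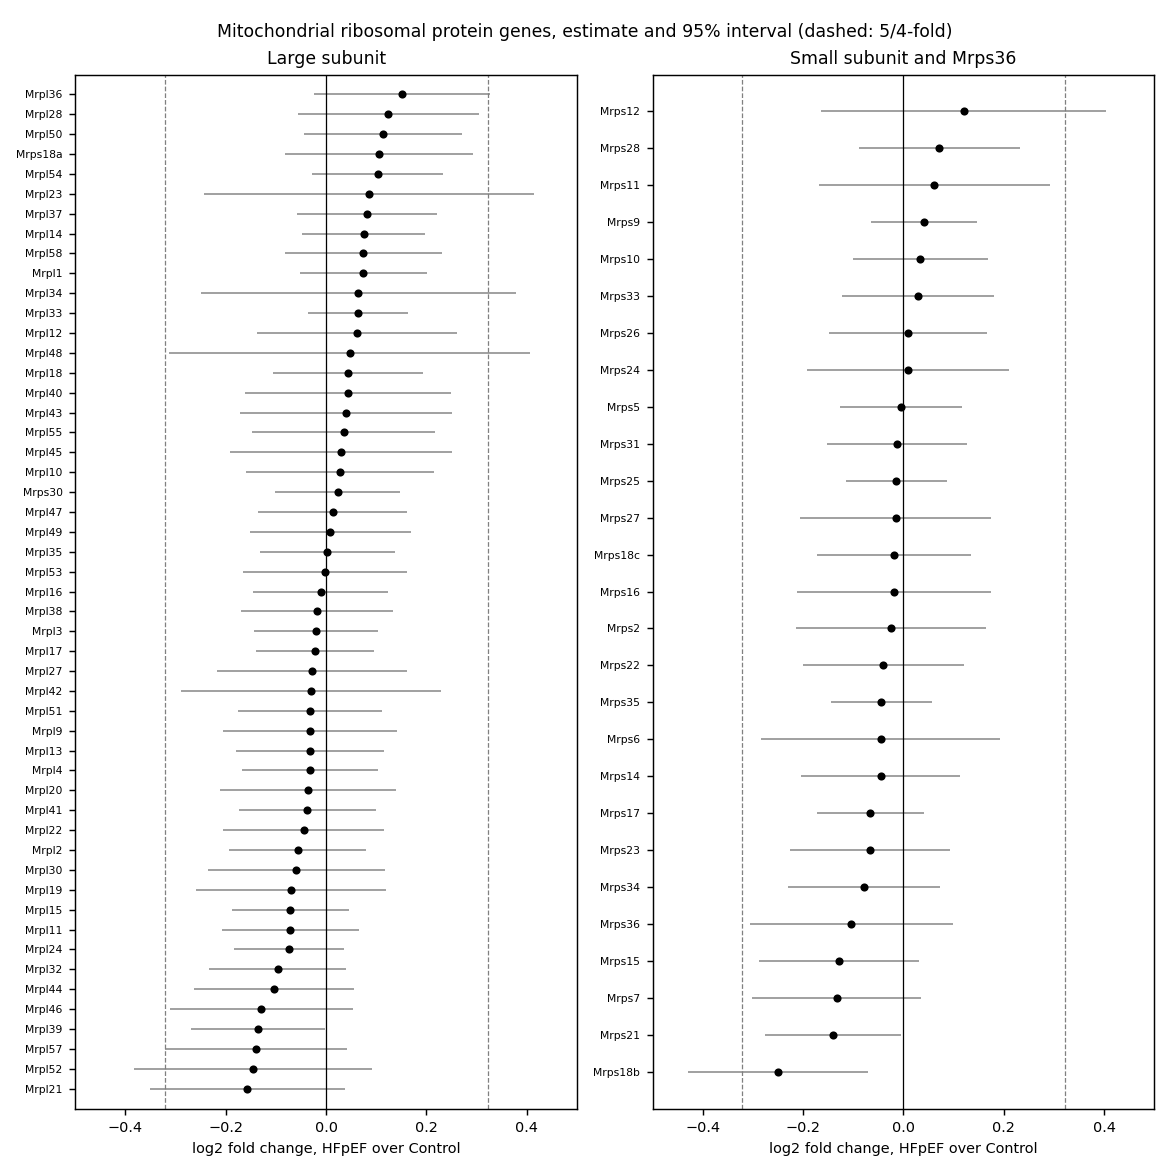
Log2 fold change of HFpEF over Control for each mitochondrial ribosomal protein gene (points) with its 95% interval (lines), by place in the ribosome (Mrps36 is drawn with the small subunit; dashed lines mark 1.25-fold). The intervals of Mrps18b, Mrps21 and Mrpl39 lie below 0, the estimates of all 78 lie within 1.2-fold, and 0 of the 78 passed at an adjusted p below 0.05 (edgeR).

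The family's total was nearly the same in both groups and differed more within a group than between them. The summed level of the 78 genes was 1188, 1351, 1399, 1359 and 1278 CPM in the 5 HFpEF libraries, against 1336, 1307, 1202, 1355 and 1432 CPM in the 5 Control libraries. The groups overlapped over most of their range, and the lowest library of each group stood apart from the rest of that group by more than the groups differed. The means were 1315 ± 83.6 CPM in HFpEF and 1327 ± 83.7 CPM in Control (SD, n = 5 each), a ratio of 0.991. With the genes of the mitochondrial genome and the gene models Gm28437 and Gm28661 left out before filtering and scaling, the ratio was 0.990. The large subunit summed to 917 ± 62.8 CPM in HFpEF and 918 ± 63.0 CPM in Control (SD, n = 5 each), and the small subunit to 383 ± 19.5 CPM in HFpEF and 393 ± 19.6 CPM in Control (SD, n = 5 each). The ratio of large to small subunit sums was 2.30, 2.42, 2.40, 2.43 and 2.40 in the HFpEF libraries, against 2.30, 2.32, 2.28, 2.36 and 2.41 in the Control libraries. HFpEF libraries tended to the upper end of this range, but HFpEF 1 was as low as Control 1, and Control 5 reached the HFpEF values. The ratio averaged 2.39 ± 0.0519 in HFpEF and 2.33 ± 0.0502 in Control (SD, n = 5 each).

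The libraries moved together across the family. HFpEF 1 was the lowest HFpEF library for 55 of the 78 genes, while it was the lowest for 25.9% of all genes tested. HFpEF 3 was the highest HFpEF library for 39 of the 78, against 19.3% of all genes. In Control, Control 3 was the lowest library for 53 of the 78 (25.8% of all genes) and Control 5 the highest for 47 (24.1%). Members of the family were thus low or high in the same libraries within both groups. Library totals ran from 31286355 to 33604554 counts in HFpEF and from 31555001 to 46108710 in Control. HFpEF 1 and Control 3 had the lowest total of their groups, and Control 5 the highest total in Control. HFpEF 5 had the highest total in HFpEF but a family sum of 1278 CPM, above that of HFpEF 1 alone. The part of the total in this pattern was not tested. Without HFpEF 1 and Control 3, a choice made after the values were seen, 0 of the 78 were called and the median log2 fold change was −0.01. Across genes, the coefficient of variation between libraries had a median of 8.25% in HFpEF (0.688% to 24.8%) and 7.96% in Control (1.76% to 21.0%).

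**Figure D3:**
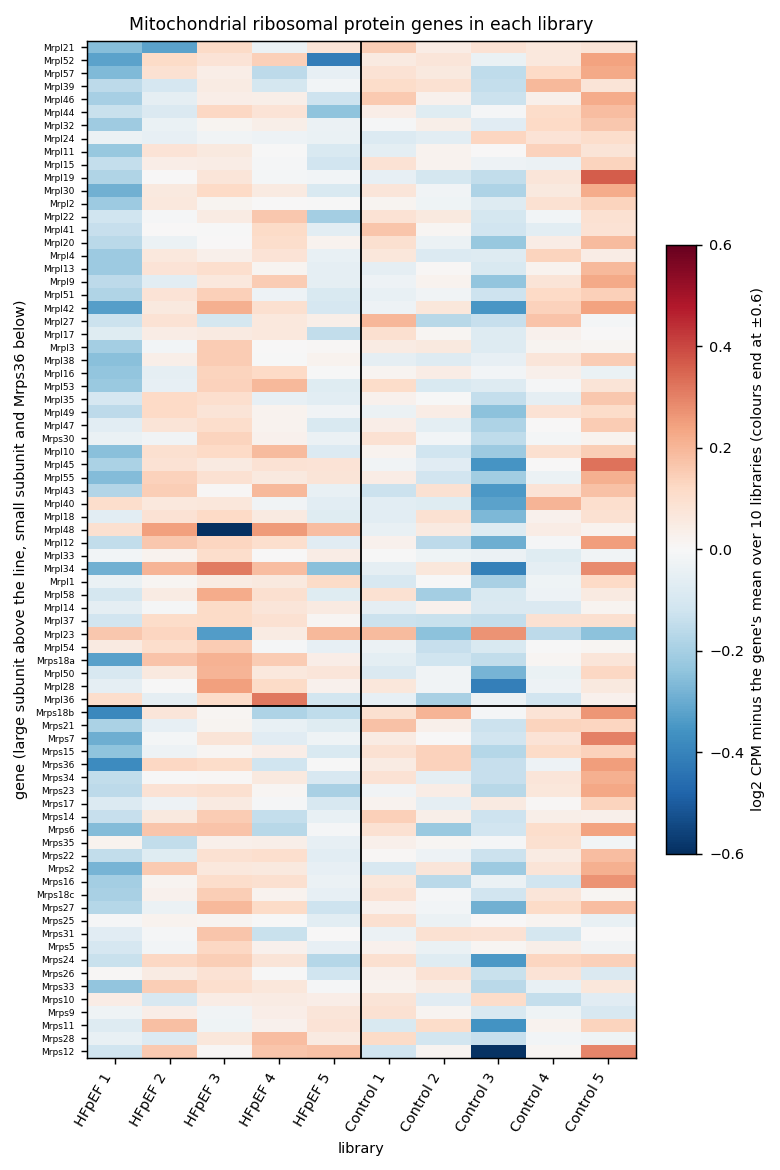
Log2 level of each mitochondrial ribosomal protein gene (rows) in each library (columns, HFpEF 1 to 5 and then Control 1 to 5). Values are differences from the gene's mean over the 10 libraries. Colours end at ±0.6, and the value of Mrpl48 in HFpEF 3 lies beyond that range. HFpEF 1 and Control 3 are low across most rows, with 55 and 53 of 78 genes lowest there within their group.

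Mitochondrial transcripts and cell type markers were read beside these sums. Genes of the mitochondrial genome took 37.6% ± 0.897 of counts in HFpEF and 35.7% ± 1.70 in Control (SD, n = 5 each). The mitochondrial mRNAs summed to 353892 to 414225 CPM in HFpEF and 308024 to 371014 CPM in Control. In HFpEF the library with the lowest family sum, HFpEF 1, also had the lowest mitochondrial mRNA sum, whereas in Control the library with the highest family sum, Control 5, had the lowest. Ventricular cardiomyocyte markers summed to 25725 to 28072 CPM in HFpEF and 26646 to 28563 CPM in Control, with HFpEF 1 and Control 3 lowest in their groups for these markers too, and 1 of 8, Tnnt2, was called lower. Endothelial markers summed to 636 to 701 CPM in HFpEF and 684 to 809 CPM in Control, with 1 of 5, Egfl7, called lower, and here HFpEF 1 (701 CPM) and Control 3 (809 CPM) were the highest of their groups. Fibroblast markers lay at 397 to 437 CPM in HFpEF and 349 to 438 CPM in Control, smooth muscle markers at 98.1 to 157 CPM in HFpEF and 75.2 to 127 CPM in Control, and leukocyte markers at 49.8 to 63.9 CPM in HFpEF and 56.2 to 87.5 CPM in Control. None of these 3 lists had a called gene. Of all genes tested, 5.33% were called, with 2.09% lower. Erythroid markers lay at 411 to 711 CPM in HFpEF and 439 to 634 CPM in Control. Atrial and adipocyte markers summed to 0.770 to 1.37 CPM and 0.0973 to 0.654 CPM over all libraries, and no listed marker of any type was at 0 in every library. The part of cell composition in the family's levels was not tested.

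Among proteins of the small subunit, Mrps18b showed the largest difference in the family. Mrps18b encodes 1 of 3 mammalian relatives of the bacterial S18 protein and lies at chr17:35910379-35916389 on the minus strand (mm10). It had 7.89, 10.8, 10.4, 9.06 and 9.27 CPM in the HFpEF libraries, against 11.0, 11.8, 10.2, 10.9 and 12.4 CPM in the Control libraries. HFpEF 1, 4 and 5 lay below every Control library, while HFpEF 2 and 3 overlapped with Control 3. The means were 9.49 ± 1.17 CPM in HFpEF and 11.3 ± 0.835 CPM in Control (SD, n = 5 each), a log2 fold change of −0.25 ± 0.08 (SE; 95% interval −0.43 to −0.07). The unadjusted p was 0.00931 and the adjusted p 0.0997 (edgeR), so the gene was not called. Its adjusted p lay between 0.0585 and 0.242 over the 21 other settings tried, with a negative fold change in 21 of 21. These settings reuse the same libraries and are not independent of each other. Its exons overlap the opposite-strand gene model Gm16279 over 30.5% of their length, and use of strand in the counting is not stated in the labels.

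The other paralogs, Mrps18a and Mrps18c, had estimates nearer to 0. Mrps18a, whose product sits in the large subunit, had 12.2, 17.2, 17.7, 17.0 and 15.7 CPM in HFpEF, against 14.7, 14.0, 13.8, 15.4 and 16.1 CPM in Control. HFpEF 2, 3 and 4 were above every Control library and HFpEF 1 below every one (log2 fold change 0.11 ± 0.09, adjusted p = 0.543, edgeR). Mrps18c, whose product holds the S18 position of the small subunit, had 7.70, 8.98, 9.77, 8.93 and 8.50 CPM in HFpEF, against 9.34, 8.77, 8.14, 9.26 and 8.88 CPM in Control. The groups overlapped throughout (−0.02 ± 0.07, adjusted p = 0.918). The difference in fold change between the paralogs was not tested.

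Mrps21, a small-subunit protein related to bacterial S21, had 15.5, 17.1, 17.9, 17.2 and 16.9 CPM in HFpEF, against 20.0, 18.1, 16.2, 19.4 and 19.4 CPM in Control. All HFpEF libraries were below Control 1, 2, 4 and 5, and Control 3 fell among the HFpEF libraries. The means were 16.9 ± 0.871 CPM in HFpEF and 18.6 ± 1.52 CPM in Control (SD, n = 5 each; log2 fold change −0.14 ± 0.06, unadjusted p = 0.0433, adjusted p = 0.227, edgeR). Mrps15, related to bacterial S15, had 8.95, 10.4, 10.7, 10.9 and 9.95 CPM in HFpEF, against 11.3, 11.6, 9.40, 11.5 and 11.7 CPM in Control. Again 4 Control libraries were above all HFpEF libraries and Control 3 was among them (−0.13 ± 0.07, adjusted p = 0.36). Mrps7, related to bacterial S7 of the decoding head, had 16.3, 19.8, 21.0, 19.0 and 19.6 CPM in HFpEF, against 20.6, 20.0, 18.4, 21.1 and 24.6 CPM in Control. HFpEF 1 was lowest and Control 5 highest, with the rest overlapping (−0.13 ± 0.08, adjusted p = 0.368). Over the 26 genes of the small subunit, 8 log2 fold changes were positive and 18 negative, with a median of −0.02.

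In the large subunit, 24 of 51 log2 fold changes were positive and 27 negative, with a median of −0.01. Mrpl39, a protein without a bacterial relative in the ribosome, had 23.1, 24.0, 26.6, 23.9 and 25.4 CPM in HFpEF, against 27.8, 27.4, 23.3, 29.5 and 27.1 CPM in Control. All HFpEF libraries lay below Control 1, 2, 4 and 5, and Control 3 was next to the lowest HFpEF library. The log2 fold change was −0.14 ± 0.06 (SE; unadjusted p = 0.0463, adjusted p = 0.235, edgeR). Mrpl21, related to bacterial L21, had 4.57, 4.36, 5.91, 5.33 and 5.75 CPM in HFpEF, against 6.04, 5.63, 5.78, 5.69 and 5.76 CPM in Control. The Control libraries were tightly grouped, and HFpEF 1, 2 and 4 lay below them with HFpEF 3 and 5 within their range (−0.16 ± 0.09, adjusted p = 0.355). Mrpl57 had a mean of 7.97 ± 0.800 CPM in HFpEF and 8.76 ± 0.821 CPM in Control (SD, n = 5 each; −0.14 ± 0.09, adjusted p = 0.384). Its libraries ran from 6.92 to 8.88 CPM in HFpEF and from 7.48 to 9.74 CPM in Control.

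The highest estimate of the family, that of Mrpl36, was also in the large subunit. Mrpl36, related to bacterial L36, had 8.98, 8.04, 8.99, 10.4 and 7.73 CPM in HFpEF, against 8.06, 7.29, 8.14, 7.70 and 8.48 CPM in Control. HFpEF 1, 3 and 4 were above every Control library and HFpEF 2 and 5 among them (log2 fold change 0.15 ± 0.08, 95% interval −0.02 to 0.33, adjusted p = 0.319, edgeR). Mrpl54, a protein specific to mitochondria, had 10.6, 11.0, 11.4, 10.2 and 9.86 CPM in HFpEF, against 9.97, 9.27, 9.59, 10.2 and 10.3 CPM in Control, so that 3 HFpEF libraries were above all Control libraries (0.10 ± 0.06, adjusted p = 0.373). Mrpl50, also specific to mitochondria, ran from 14.2 to 17.5 CPM in HFpEF and from 12.5 to 16.6 CPM in Control (0.11 ± 0.07, adjusted p = 0.42). Mrpl28, related to bacterial L28, had 22.8, 23.6, 28.0, 25.6 and 24.1 CPM in HFpEF, against 24.8, 23.3, 17.8, 23.2 and 24.6 CPM in Control. Control 3 stood far below all others, and the remaining libraries overlapped (0.12 ± 0.08, adjusted p = 0.44). Mrpl33, Mrpl14, Mrpl37 and Mrpl1 had log2 fold changes of 0.06, 0.07, 0.08 and 0.07, with adjusted p-values between 0.485 and 0.528.

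**Figure D4:**
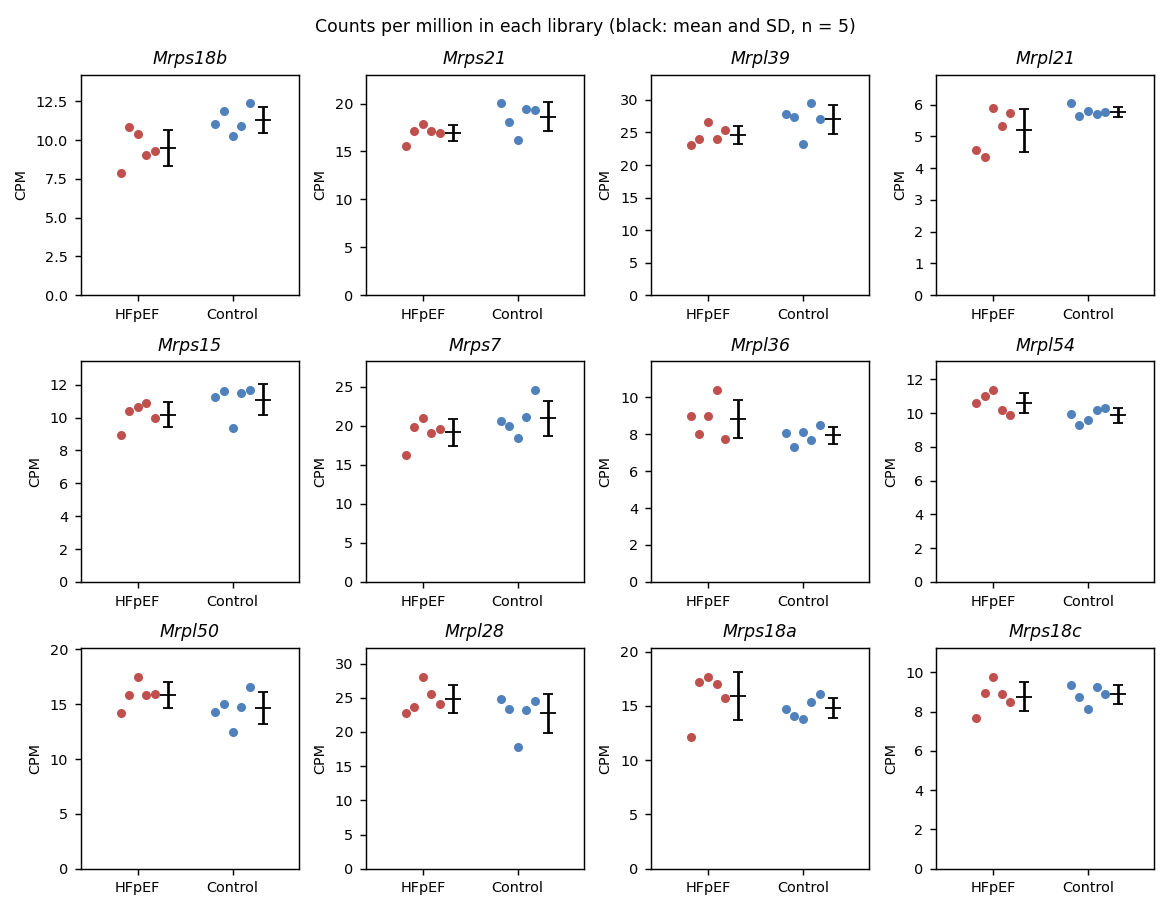
CPM (vertical axis, from 0) in each of the 5 HFpEF libraries (left) and 5 Control libraries (right) for 12 genes of the family; black marks give the mean and SD. In every panel the groups overlap, and HFpEF 1 or Control 3 is often the lowest point of its group.

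Grouped by subunit and origin, the medians stayed close to 0; Mrps18a and Mrps18b were counted as specific to mitochondria, after their names in ribosome structures, although they resemble S18. Large-subunit proteins with bacterial relatives (29 genes) had a median log2 fold change of −0.02 with 12 positive, and large-subunit proteins specific to mitochondria (22 genes) 0.02 with 12 positive. Small-subunit proteins with bacterial relatives (16 genes) had a median of −0.02 with 6 positive, and those specific to mitochondria (10 genes) −0.03 with 2 positive. In all, 32 of the 78 were positive and 46 negative, a split that moved with the processing: 27 to 34 were positive under other scalings and 18 to 50 over all settings tried. The 49 genes not described one by one, 32 of the large and 17 of the small subunit, had log2 fold changes between −0.15 (Mrpl52) and 0.07 (Mrpl58), adjusted p-values of 0.428 or more and mean levels of 4.56 to 47.3 CPM.

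Levels within the family differed far more than levels between the groups. Compared per kilobase of the longest protein-coding transcript, mean levels over the 10 libraries ran from 1.50 CPM per kilobase for Mrps26 to 77.5 for Mrpl42, a 51.7-fold range, with a median of 10.1 and quartiles at 5.52 and 16.9. Mrpl42, whose product is specific to mitochondria, was followed by Mrpl33 (38.8 CPM per kilobase, related to bacterial L33), Mrps21 (36.4) and Mrpl12 (30.5, the stalk protein that contacts translation factors). The lowest, after Mrps26, were Mrpl23 (2.08) and Mrps5 (2.63), related to bacterial L23 and S5. The proteins are needed in equal numbers for each ribosome, apart from the stalk protein, which is present in several copies. The median was 10.4 CPM per kilobase in the large subunit and 9.01 in the small. These levels depend on the transcript length used and on reads that paralogs or pseudogenes may share. Outside the rule lie 5 pseudogene rows, such as Mrpl23-ps1 with 2895 counts over all libraries. Mrpl23 itself had only 37 to 64 counts in a library, fewer in sum than that pseudogene row. The sharing of reads between the 2 rows, and so the low place of Mrpl23, was not tested.

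Mrpl42 had 40.7, 53.3, 59.3, 54.7 and 47.7 CPM in HFpEF, against 50.1, 53.6, 40.2, 56.3 and 60.6 CPM in Control. HFpEF 1 and Control 3 were again the lowest of their groups, and the groups overlapped over their whole range (log2 fold change −0.03 ± 0.12, adjusted p = 0.918, edgeR). Mrpl12 had 36.0, 44.5, 43.6, 42.8 and 38.1 CPM in HFpEF, against 40.6, 35.8, 32.5, 39.7 and 47.5 CPM in Control. Its log2 fold change was 0.06 ± 0.09 (adjusted p = 0.766, edgeR), and the groups overlapped. Mrps26 stayed between 5.85 and 6.81 CPM in all 10 libraries (0.01 ± 0.07, adjusted p = 0.962), and Mrps5 between 11.0 and 12.8 CPM (−0.00 ± 0.06, adjusted p = 0.979). Mrpl23 had 1.69, 1.65, 1.20, 1.57 and 1.73 CPM in HFpEF, against 1.73, 1.27, 1.82, 1.35 and 1.27 CPM in Control, from as few as 37 counts in a library. Both groups covered nearly the same range (0.09 ± 0.15, adjusted p = 0.811). Mrps30 ran from 15.6 to 17.6 CPM in HFpEF and from 14.4 to 17.1 CPM in Control (0.02 ± 0.06, adjusted p = 0.873). Mrps36 had 11.8, 16.7, 16.6, 14.2 and 15.4 CPM in HFpEF, against 15.9, 16.9, 14.0, 15.0 and 18.3 CPM in Control (−0.10 ± 0.09, adjusted p = 0.588), with HFpEF 1 and Control 3 lowest once more.

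**Figure D5:**
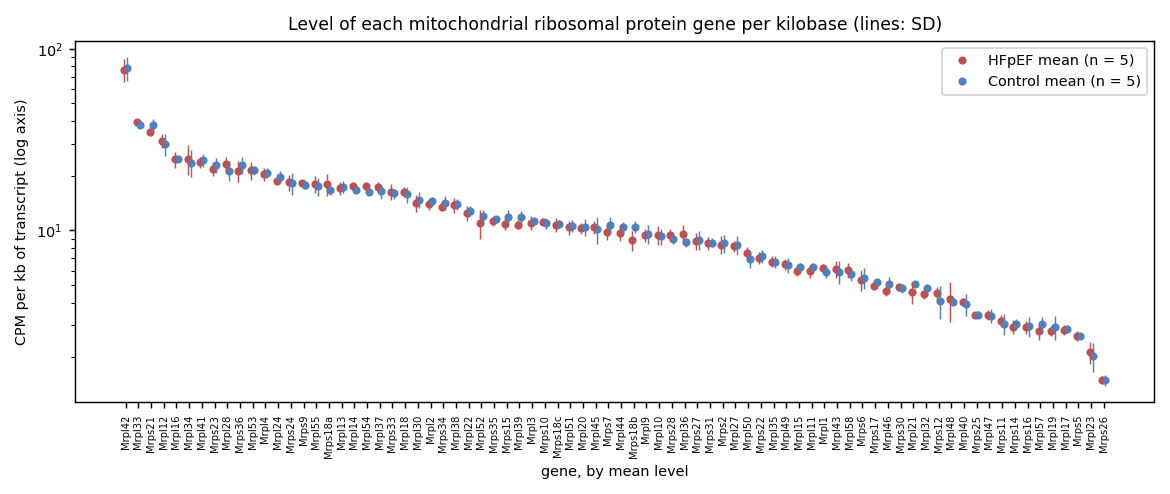
Mean level of each mitochondrial ribosomal protein gene in HFpEF and Control (CPM per kilobase of the longest protein-coding transcript, log axis), ordered by level, with vertical lines for the SD (n = 5). The levels span 1.50 to 77.5 CPM per kilobase, and the groups nearly coincide for each gene.

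A single library set the value of Mrpl48, which was picked out after its values were seen. Mrpl48, a large-subunit protein specific to mitochondria, had 18.5, 20.4, 10.1, 20.6 and 19.7 CPM in HFpEF, against 16.7, 17.9, 16.4, 17.8 and 17.5 CPM in Control. Every HFpEF library but HFpEF 3 was above every Control library, and HFpEF 3 was far below all others. The log2 fold change was 0.05 ± 0.16 (adjusted p = 0.909, edgeR) with all libraries and 0.20 (adjusted p = 0.0804) without HFpEF 3. In the family as a whole HFpEF 3 was the highest HFpEF library for 39 of the 78 genes, so this low value ran against the rest. Mrps12, related to bacterial S12 of the decoding site, had 3.44, 4.18, 3.76, 4.20 and 4.23 CPM in HFpEF, against 3.45, 3.79, 2.48, 3.77 and 4.58 CPM in Control, with Control 3 lowest (0.12 ± 0.13, adjusted p = 0.671). Its log2 fold change was 0.02 without Control 3 and 0.23 without Control 5, with adjusted p-values of 0.958 and 0.323.

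Many of these genes start close to another gene that runs the other way. Of the 78, 33 (42.3%) had a protein-coding neighbour on the opposite strand with its start within 1000 bases in GENCODE M21, against 10.7% of all 22028 protein-coding genes. Among the pairs was 1 formed by 2 genes of the family, Mrpl46 on the minus strand of chr7 and Mrps11 on the plus strand, which are proteins of the large and the small subunit. Mrpl46 had 4.79, 5.30, 5.65, 5.63 and 5.04 CPM in HFpEF, against 6.13, 5.60, 5.03, 5.62 and 6.41 CPM in Control (log2 fold change −0.13 ± 0.09, adjusted p = 0.426, edgeR). Mrps11 had 3.10, 3.71, 3.21, 3.33 and 3.46 CPM in HFpEF, against 3.06, 3.52, 2.55, 3.32 and 3.59 CPM in Control (0.06 ± 0.11, adjusted p = 0.803). In both genes Control 3 was the lowest and Control 5 the highest Control library, and the groups overlapped. Their annotated exons overlap over 12.2% of the length of Mrpl46, where reads cannot be told apart without known strand. Mrps12 faces Sars2, the mitochondrial seryl-tRNA synthetase, which had a log2 fold change of −0.06 ± 0.08 (adjusted p = 0.719). Mrpl43, a large-subunit protein, faces Twnk, the helicase of mitochondrial DNA; the log2 fold changes were 0.04 ± 0.10 (adjusted p = 0.873) for Mrpl43 and −0.05 ± 0.07 (adjusted p = 0.735) for Twnk. The exons of Mrpl43 overlap those of Twnk over 33.4% of their length, with the same limit on telling reads apart.

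Promoter windows were read from RefSeq (GRCm38.p6), from 250 bases before to 50 after each annotated start, and 69 of the 78 genes had an entry. The windows of the 3 genes with an unadjusted p below 0.05, and of the facing pair, are shown. Mrps18b is at chr17:35916391-35916690 (minus strand), Mrps21 at chr3:95871465-95871764 (minus), Mrpl39 at chr16:84735195-84735494 (minus), Mrps11 at chr7:78782881-78783180 (plus) and Mrpl46 at chr7:78783040-78783339 (minus). Each runs 5′ to 3′ on its gene's strand, and capitals mark matches, on either strand, to the motifs spelled out after the sequences.
Mrps18b: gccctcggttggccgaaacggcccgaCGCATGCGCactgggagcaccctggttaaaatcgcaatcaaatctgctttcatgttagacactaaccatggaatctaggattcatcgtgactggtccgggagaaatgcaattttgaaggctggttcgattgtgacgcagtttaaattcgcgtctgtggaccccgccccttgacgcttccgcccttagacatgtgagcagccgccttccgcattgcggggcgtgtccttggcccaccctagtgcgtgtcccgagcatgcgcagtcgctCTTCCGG
Mrps21: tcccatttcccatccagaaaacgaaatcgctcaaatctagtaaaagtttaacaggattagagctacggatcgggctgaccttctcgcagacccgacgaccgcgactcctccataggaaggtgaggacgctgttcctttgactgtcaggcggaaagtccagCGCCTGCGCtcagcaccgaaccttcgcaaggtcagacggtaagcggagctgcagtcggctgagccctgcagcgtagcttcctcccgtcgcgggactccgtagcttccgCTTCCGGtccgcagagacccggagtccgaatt
Mrpl39: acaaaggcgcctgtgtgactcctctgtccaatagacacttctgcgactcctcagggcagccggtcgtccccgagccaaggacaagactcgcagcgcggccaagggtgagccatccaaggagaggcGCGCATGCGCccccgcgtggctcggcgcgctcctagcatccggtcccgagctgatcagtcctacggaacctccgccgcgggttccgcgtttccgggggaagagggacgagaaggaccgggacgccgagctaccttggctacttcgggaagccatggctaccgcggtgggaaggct
Mrps11: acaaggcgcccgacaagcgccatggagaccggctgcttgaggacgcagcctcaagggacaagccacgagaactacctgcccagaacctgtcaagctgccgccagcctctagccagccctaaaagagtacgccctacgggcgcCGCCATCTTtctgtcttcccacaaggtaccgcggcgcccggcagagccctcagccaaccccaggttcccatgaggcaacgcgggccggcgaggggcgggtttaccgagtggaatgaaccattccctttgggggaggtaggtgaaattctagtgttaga
Mrpl46: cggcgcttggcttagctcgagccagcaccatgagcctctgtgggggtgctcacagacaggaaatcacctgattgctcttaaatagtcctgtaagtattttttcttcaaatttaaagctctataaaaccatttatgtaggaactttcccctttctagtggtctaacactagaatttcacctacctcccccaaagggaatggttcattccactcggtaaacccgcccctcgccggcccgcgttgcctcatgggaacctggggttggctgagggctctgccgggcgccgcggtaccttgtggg
The windows of Mrps11 and Mrpl46 overlap, so part of each is the reverse complement of the other. The RefSeq starts used for Mrpl39 and Mrpl46 lie inside the GENCODE gene bounds, so their windows are not those of the outermost start.

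Motifs of 4 kinds of factor known to act on nuclear genes for mitochondrial proteins were searched on both strands. Matches of different motifs may overlap. A gene was counted for a motif when any of its windows held it, and 3 of the 69 genes had more than 1 window. GCGCANGCG, a core of the sequence bound by NRF1, was in the windows of 16 of the 69 genes (23.2%), against 7.03% of 27025 genes. Mrps18b, Mrps21 and Mrpl39 hold it before the RefSeq start used, in Mrpl39 as matches on both strands that overlap. Their windows were chosen for display by p, and a link between the motif and their levels was not tested. Genes with the motif had log2 fold changes of both signs, such as 0.07 for Mrpl14 and −0.25 for Mrps18b. CCGGAAG, the core bound by ETS factors such as GABP, was in those of 26 genes (37.7%, against 9.93%), among them Mrps18b and Mrps21 just after the start. AAGATGGCG, bound by YY1, was in those of 8 genes (11.6%, against 1.64%), among them Mrps11. The E-box CACGTG, bound by MYC with its partner MAX, was in those of 5 genes (7.25%, against 8.09%). Any of the 4 was found for 44 of the 69 genes (63.8%, against 22.6%). The 27025 genes were all those with an entry, whether or not they were tested here, while every family gene was tested. A match describes the letters and is not evidence of binding. The median log2 fold change was −0.04 with and −0.01 without the NRF1 motif, −0.02 with and −0.01 without the ETS motif, 0.04 with and −0.02 without the YY1 motif, and −0.02 with and −0.01 without the E-box.

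Genes of factors that act through such motifs included 2 that were called. In the list of 11 regulators of mitochondrial biogenesis, 2 were called higher, 0 lower and 9 were not called. Of all genes tested, 3.24% were called higher and 2.09% lower. Ppargc1a, the coactivator PGC-1alpha, had 99.8, 101, 125, 136 and 142 CPM in HFpEF, against 91.6, 93.6, 87.1, 84.5 and 72.0 CPM in Control. All HFpEF libraries were above all Control libraries, as they were for 3.88% of all genes tested (log2 fold change 0.50 ± 0.11, adjusted p = 0.0199, edgeR). The call ended without HFpEF 3 or Control 3, with an adjusted p of at most 0.0588 over the 10 fits that left out 1 library. Myc had 2.79, 1.96, 2.21, 2.50 and 2.44 CPM in HFpEF, against 1.81, 1.60, 1.89, 1.49 and 1.57 CPM in Control, with no overlap (0.51 ± 0.13, adjusted p = 0.029). It stayed called in 3 of these 10 fits and lost the call without HFpEF 1, 3, 4 or 5 or Control 2, 4 or 5 (adjusted p up to 0.0688). Without Control 4 and Control 5 the adjusted p was 0.0864 for Ppargc1a and 0.130 for Myc. Without HFpEF 1 and Control 3 it was 0.0559 for Myc, and without a filter on low counts 0.0666 for Ppargc1a. Nrf1, Gabpa and Yy1, which encode DNA-binding factors for the other 3 motifs, had log2 fold changes of −0.08 ± 0.07, 0.01 ± 0.06 and 0.02 ± 0.05 and were not called (adjusted p = 0.534, 0.939 and 0.869). The ribosomal protein genes had medians near 0 in the same libraries, and a link between these was not tested.

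The rest of the translation system of mitochondria was likewise uncalled. Of 5 ribosomal proteins with other symbols, 28 assembly factors, 16 translation factors and RNA stabilisers, 20 tRNA synthetases and related enzymes, and 12 genes of mitochondrial DNA and transcription, 0 were called in either direction. The median log2 fold changes of these lists were −0.05, −0.03, −0.02, −0.05 and −0.04. Among all genes tested, 5.33% were called. The gene with the smallest p among the assembly factors was Mtg2, a GTPase of large-subunit assembly, with 8.13 ± 0.234 CPM in HFpEF and 9.25 ± 0.646 CPM in Control (SD, n = 5 each; −0.18 ± 0.06, adjusted p = 0.115, edgeR). Lrpprc, which stabilises mitochondrial mRNAs, had 131 ± 3.67 CPM in HFpEF and 120.3 ± 4.04 CPM in Control (SD, n = 5 each; 0.12 ± 0.04, adjusted p = 0.112). Rars2, the mitochondrial arginyl-tRNA synthetase, had 8.38 ± 0.648 CPM in HFpEF and 9.65 ± 0.301 CPM in Control (SD, n = 5 each; −0.20 ± 0.07, adjusted p = 0.0891). Chchd1, a small-subunit protein, and Tefm, an elongation factor of mitochondrial transcription, had log2 fold changes of −0.12 ± 0.07 (adjusted p = 0.381) and −0.17 ± 0.09 (adjusted p = 0.323).

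The RNA partners and templates of the ribosome come from the mitochondrial genome. The 12S rRNA gene mt-Rnr1 had 18.5 ± 7.73 CPM in HFpEF and 15.0 ± 5.03 CPM in Control (SD, n = 5 each; log2 fold change 0.31 ± 0.33, adjusted p = 0.669, edgeR), a level left after removal of ribosomal RNA. The 16S rRNA gene mt-Rnr2, whose RNA belongs to the large subunit, had 29.3 ± 11.6 CPM in HFpEF and 28.6 ± 9.78 CPM in Control (SD, n = 5 each; 0.05 ± 0.33, adjusted p = 0.956). Of the 13 mitochondrial mRNAs, 1 was called higher (3.24% of all genes tested), 0 lower and 12 were not called. Their median log2 fold change was 0.13, with 11 positive and 2 negative. At an unadjusted p below 0.05 (edgeR) there were 6, against 20.5% of all genes, among them mt-Nd3, which was lower (−0.19). The uncalled mt-Nd5, mt-Co1, mt-Nd4 and mt-Nd6 had log2 fold changes of 0.23, 0.19, 0.22 and 0.24 (adjusted p between 0.0649 and 0.103, edgeR). The called gene was mt-Co3, a subunit of cytochrome c oxidase, with 485 ± 61.0 CPM in HFpEF and 299.9 ± 69.3 CPM in Control (SD, n = 5 each; 0.69 ± 0.16, adjusted p = 0.0357). In CPM, not set per length, it was counted far below most other mitochondrial mRNAs. Mean levels of mt-Co1 were 134862 CPM in HFpEF and 118017 CPM in Control. Those of mt-Cytb were 35440 CPM in HFpEF and 32512 CPM in Control. How reads were divided between mt-Co3 and similar sequences elsewhere in the genome was not tested. The mt-Co3 call held in 3 of the 10 fits that left out 1 library and was lost without HFpEF 1, 3, 4 or 5 or Control 2, 3 or 5, with an adjusted p up to 0.0890. The adjusted p was 0.0991 without a filter on low counts and 0.103 without HFpEF 1 and Control 3.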

How the data were processed

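The deposited table holds estimated counts per gene (expected counts), whole numbers that are not normalized. The submitters' processing notes list Bowtie2 2.1.0, RSEM 1.2.15 and mm10 but give no role or order for them. RSEM divides reads that match several transcripts, so paralogs and pseudogenes share reads by estimate. Strand use, annotation release and rounding are not given in the sources used here, and rounding to whole numbers here changed 0 values. The 92 ERCC rows held 0 counts and were left out. Library totals were 31286355 to 46108710 counts.

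All genes were fitted together with edgeR 4.0.16 (R 4.3.3): filterByExpr with a minimum count of 10, TMM scaling, robust quasi-likelihood fits on group alone, and adjustment by Benjamini-Hochberg over 18491 genes with a threshold of 0.05. The biological coefficient of variation, common to all genes, was 0.0965. Each standard error was derived from the F statistic of its log2 fold change, and each interval covers 95%. The test was run on simulated counts, drawn for each gene on its own with the spread that the same fit had estimated. Such counts hold no library shifts shared between genes, so they cannot show how the test behaves under them. Coordinates and transcript lengths came from GENCODE M21, which matched 78 of the 78 family genes; 18 share at least 10% of their exon length with another gene, 14 of these with one on the opposite strand. No gene of the family had counts equal to another row.

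The family, the gene lists and the roles were chosen with earlier results of these data known. Described by name were the 8 genes with the smallest p in each direction and the 3 most and 3 least abundant per kilobase. With the S18 paralogs, Mrps30 and Mrps36 this gave 24 genes. Another 5 (Mrpl48, Mrpl12, Mrps11, Mrps12 and Mrpl43) were picked after their values were seen. For some of the named genes the value of each library is not printed. Of each pathway list the called genes were named, or the one with the smallest p. Alternatives were other scalings and filters, DESeq2 1.42.0, limma 3.58.1 (voom), a replicate block, removal of length and GC trends, and leaving out libraries.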

Additional observations from a re-analysis of the deposited data

Results flagged for a closer look

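In each group of 5 libraries, a library was singled out when its gap to the nearest other exceeded 0.710 of the group's whole range (Dixon's criterion). Of 160 groups tested, 8 met it, and chance alone meets it in about 1 of 20 groups. Mrpl2 had 12.5 CPM in HFpEF 1, with 14.6 to 15.2 CPM in the other HFpEF libraries. Mrpl45 had 21.8 CPM in HFpEF 1, with 25.7 to 26.4 in the others, and Mrpl55 had 13.9 CPM there, with 17.3 to 18.3 in the others. The ratio of large to small subunit sums was 2.30 in HFpEF 1 and 2.40 to 2.43 in the other HFpEF libraries. Mrpl48 had 10.1 CPM in HFpEF 3, with 18.5 to 20.6 in the others. Mrps10 had 11.5 CPM in HFpEF 2, with 12.6 to 12.7 in the others. Mrpl28 had 17.8 CPM in Control 3, with 23.2 to 24.8 in the other Control libraries, and Mrps15 had 9.40 CPM there, with 11.3 to 11.7 in the others. Of the 8 values, 4 belong to HFpEF 1 and 2 to Control 3.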

How the results depend on the processing

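Over the 21 other settings, 0 of the 78 genes were called in any, and the smallest adjusted p of a family gene was 0.0585 (Mrps18b, without HFpEF 2). The number of all genes called was 554 to 1101 over the 10 fits that left out 1 library (985 with all), with 554 without HFpEF 3, 630 without Control 1 and 633 without HFpEF 4. The family's median log2 fold change lay between −0.04 and 0.02 in these fits, and between −0.04 and 0.04 over all settings. Without Control 4 and Control 5, the 2 deepest libraries, it was 0.04 (chosen after seeing the data, as was leaving out HFpEF 1 and Control 3).

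Of 609 named gene values under other settings, 578 kept their sign and 31 reversed it, none of them called in either fit. Mrps5 became 0.00154 with RLE scaling, 0.00122 with DESeq2, 0.000727 without Control 4 and 5 and 0.0218 without HFpEF 1 and Control 3. Mrps26 became −0.00378 with upper quartile scaling and −0.0198 without HFpEF 1 and Control 3. Mrps18c became 0.00507 with length and GC trends removed and 0.00498 without Control 4 and 5, under which Mrpl42 was 0.0933 and Mrpl23 −0.0305. The cause was not tested. Leaving out 1 library, log2 fold changes ran from −0.110 to 0.0413 for Mrpl42, −0.0306 to 0.1001 for Mrpl43, −0.00772 to 0.196 for Mrpl48, −0.00664 to 0.115 for Mrps11, −0.0594 to 0.0254 for Mrps18c, −0.0192 to 0.0401 for Mrps26, −0.00871 to 0.0491 for Mrps30 and −0.0364 to 0.0199 for Mrps5.

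With a replicate block 744 genes and 0 family genes were called, and the adjusted p was 0.127 for Mrps18b, 0.0971 for Ppargc1a and 0.0597 for Myc. Libraries with the same number did not deviate together (correlations −0.110 to 0.0638, with 0 of 5 over 0.1). In 1 of the 5 pairs each library was the other's best match. No pairing by number was seen, which does not exclude one. For Mrpl23, with as few as 37 counts in a library, the interval of the fold change ran from 0.845 to 1.33.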
